A study of Mus musculus with 19 samples.

Results

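The oligoadenylate synthetases are the enzymes that make 2-5A, the short oligoadenylates that cells use as an antiviral signal. The genes described here are Oas1a, Oas1b, Oas1g, Oas2, Oas3, Oasl1 and Oasl2, chosen by name from the family and matched to the count table by gene symbol. All 7 were found among the 56980 genes of the table, and all 7 were among the 18739 genes that passed the low-count filter. The libraries were made from CD11b+ cells of the mouse brain, taken from male littermates aged 3 to 4 months that were either PARK7/DJ-1 KO or wildtype. Each mouse received 1 intraperitoneal injection, either LPS of E. coli O55:B5 at 4 μg/g body weight or PBS (saline) as the vehicle, and was sampled after 6 h. There were 5 KO mice with LPS, 5 KO mice with PBS, 5 wildtype mice with LPS and 4 wildtype mice with PBS. The KO allele is a gene trap in Park7, so the gene is disrupted in every cell type and not in CD11b+ cells alone, and the line had been backcrossed to C57BL/6NCrl for many generations.

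When a cell meets double-stranded RNA, an oligoadenylate synthetase binds it and joins ATP molecules into 2-5A. The 2-5A made in this way sets off the breakdown of RNA in the cell, which stops viral replication and protein synthesis. The synthetase genes are classical targets of interferon signalling, which reaches them through transcription factors that include STAT2 and IRF9. LPS, a component of the outer membrane of Gram-negative bacteria, is read by TLR4, and microglia that meet it are known to produce type I interferon.

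On the GRCm39 build all 7 genes lie on chromosome 5, in 2 groups. Oasl2 (115034997 to 115050295, plus strand) and Oasl1 (115061294 to 115075974, plus strand) are neighbours. The others lie together further along the chromosome, with Oas2 at 120868398 to 120887933, Oas3 at 120891163 to 120915729, Oas1b at 120950700 to 120962228, Oas1g at 121014205 to 121025676 and Oas1a at 121031070 to 121046449. Of these 5, Oas1b is on the plus strand and the others are on the minus strand. Oas1d, on the plus strand, spans Oas1a, and its counts are given with those of the other Oas1 copies.

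Promoter sequences were taken from RefSeq on the GRCm38.p6 build, in which 5 of the 7 genes had an entry. They are shown because the 7 genes moved together in these libraries and because the interferon-stimulated response element lies in promoters of this kind. The 120 bases before the start site are printed 5′ to 3′ along the gene's own strand, and capitals mark each match to GAAANNGAAA, the core of that element, where N is any base and both strands were searched. They come from chr5:120907526-120907645 (minus strand) for Oas1a, chr5:120887614-120887733 (minus strand) for Oas1g, chr5:120777660-120777779 (minus strand) for Oas3, chr5:114923120-114923239 (plus strand) for Oasl1 and chr5:114896814-114896933 (plus strand) for Oasl2.
Oas1a: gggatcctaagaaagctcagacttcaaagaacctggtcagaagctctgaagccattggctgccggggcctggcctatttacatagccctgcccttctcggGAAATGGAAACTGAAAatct
Oas1g: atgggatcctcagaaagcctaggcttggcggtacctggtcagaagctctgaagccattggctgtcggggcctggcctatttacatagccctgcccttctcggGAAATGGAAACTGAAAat
Oas3: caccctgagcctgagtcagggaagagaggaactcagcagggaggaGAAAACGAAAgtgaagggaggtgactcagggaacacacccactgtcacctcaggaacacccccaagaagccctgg
Oasl1: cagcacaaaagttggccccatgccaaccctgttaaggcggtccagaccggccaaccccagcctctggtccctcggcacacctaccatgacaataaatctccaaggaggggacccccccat
Oasl2: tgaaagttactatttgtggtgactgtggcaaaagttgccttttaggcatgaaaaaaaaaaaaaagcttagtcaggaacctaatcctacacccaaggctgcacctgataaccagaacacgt

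Over the full 300 bases of the table (250 before and 50 after the start site), 3 of the 5 promoters held the motif, against 3.44% of all 32851 promoters in it. Oas1a had 2 matches, at -20 to -11 and -14 to -5 relative to the start site, and these overlap by their shared GAAA. Oas1g had the same 2 matches, at -18 to -9 and -12 to -3, and Oas3 had 1, at -75 to -66. The letters were not found in the 300 bases of Oasl1 or Oasl2. Among the other genes described further on whose promoters were searched, Isg15 had 3 matches, Oas1c, a family copy not called after LPS, had 2, Stat2 had 1, and Irf7, Abce1, Pde12, Akap7, Oas1f and Oas1h had 0. Oas1a and Oas1g shared an unbroken run of 56 bases upstream of the start site, at -58 to -3 in Oas1a and -56 to -1 in Oas1g. The matches of both genes lie inside this run, so they are not separate observations. No other pair of these promoters shared more than 9 bases.

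The near-identity of Oas1a and Oas1g extended into their transcripts. Of the stretches of 75 bases, the read length, along the principal transcript, 46.9% for Oas1a and 44.6% for Oas1g occurred without a mismatch in the other gene. A read pair from such a stretch may be assigned to neither or to the wrong copy, so the split between these genes is uncertain. The share was 2.76% for Oas2, 0.681% for Oas1b, 0.375% for Oasl1 and 0 for Oas3 and Oasl2.

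Total counts ranged from 11936364 to 22788884 per library, with a median of 17211939. Levels are given in CPM, the read counts of a gene relative to the depth of its library. On this scale 3 counts, the floor used for detection, were worth 0.139 to 0.256 CPM. This limit covers counting error only. Park7 checked the labels, at 20.6 to 32.1 CPM in the 9 wildtype libraries and 0.457 to 5.38 CPM in the 10 KO libraries. Itgam, which encodes CD11b, was at 238 to 472 CPM in every library, and the microglial markers summed to 17335 CPM or more in each PBS library. Nothing in the labels says which mice shared a litter or a day of preparation.

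LPS raised all 7 synthetase genes in both genotypes. In wildtype mice the rise ran from 3.80-fold for Oas1b to 81.7-fold for Oasl1, and in KO mice from 3.37-fold for Oas1b to 72.3-fold for Oasl1. For each of the 7 genes, every library after LPS lay above every library after PBS, in both genotypes. Calls for LPS against PBS used an adjusted p under 0.05 in edgeR's quasi-likelihood test and a log2 fold change (log2FC) of at least 0.5 in size. By this rule 18.4% of all genes tested rose and 17.4% fell in wildtype mice, and 20.1% rose and 19% fell in KO mice. LPS values lay wholly above PBS values for 20.8% of genes in wildtype and 16.2% in KO mice. The median log2FC of the 7 genes was 3.60 in wildtype and 3.44 in KO mice, beside -0.06 and -0.01 over all genes tested.

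**Figure D1:**
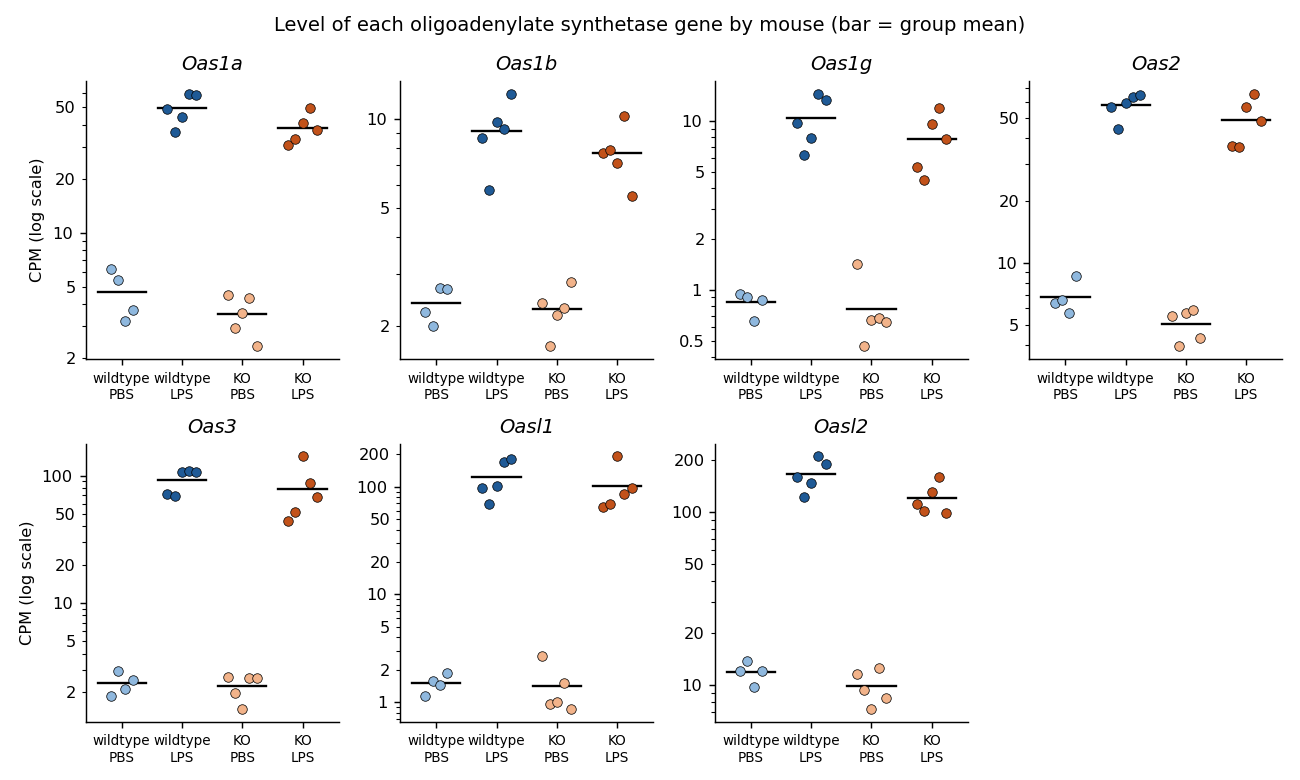
Level in CPM (log axis) of the 7 oligoadenylate synthetase genes in each mouse, with wildtype in blue and KO in orange, PBS in pale and LPS in dark shades, and the group mean as a bar. The LPS libraries sit above all PBS libraries for each synthetase gene.

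Oas1a encodes a small, active synthetase. Its level in wildtype mice 1 to 4 after PBS was 6.31, 5.45, 3.22 and 3.73 CPM, and in wildtype mice 1 to 5 after LPS it was 49.0, 36.4, 44.0, 59.4 and 58.3 CPM. In KO mice 1 to 5 it was 4.48, 2.96, 3.56, 4.29 and 2.32 CPM after PBS and 30.9, 33.1, 40.7, 49.6 and 37.3 CPM after LPS. The log2FC was 3.40 ± 0.25 (SE, adjusted p = 6.21e-09) in wildtype and 3.44 ± 0.23 (adjusted p = 1.14e-09) in KO mice. Its lowest LPS library, KO mouse 1, stood well above its highest PBS library, wildtype mouse 1.

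Oas1g is the near-copy of Oas1a. It was the lowest of the 7 genes in CPM after PBS, at 0.938, 0.909, 0.657 and 0.869 CPM in the wildtype mice, which rested on 10 to 18 counts per library. After LPS the 5 wildtype mice had 9.72, 6.31, 7.95, 14.5 and 13.4 CPM. In KO mice the values were 1.41, 0.462, 0.660, 0.681 and 0.648 CPM after PBS and 5.34, 4.46, 9.57, 11.97 and 7.80 CPM after LPS. KO mouse 1 was the highest of all PBS libraries for this gene. The log2FC was 3.60 ± 0.38 in wildtype (adjusted p = 4.08e-07) and 3.34 ± 0.34 in KO mice (adjusted p = 2.33e-07).

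Oas1b is known for the resistance of wild mice to flaviviruses, and common laboratory strains carry a truncated allele. It had the smallest rise of the 7. Wildtype mice had 2.24, 2.00, 2.69 and 2.67 CPM after PBS and 8.65, 5.79, 9.76, 9.30 and 12.2 CPM after LPS. KO mice had 2.39, 1.71, 2.18, 2.30 and 2.81 CPM after PBS and 7.71, 7.89, 7.12, 10.2 and 5.49 CPM after LPS. Each LPS library was above each PBS library, with KO mouse 5 the lowest of the LPS libraries. The log2FC was 1.92 ± 0.23 (adjusted p = 2.27e-06) in wildtype and 1.75 ± 0.22 (adjusted p = 1.94e-06) in KO mice. Its 95% interval in wildtype mice, 1.43 to 2.42, lay below that of each other synthetase gene, the nearest being Oas2 at 2.65 to 3.51.

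Oas2 makes 2-5A with a pair of synthetase units in a single protein. It was at 6.36, 6.61, 5.72 and 8.63 CPM in wildtype mice after PBS and at 56.8, 44.3, 59.6, 63.8 and 64.6 CPM after LPS. KO mice had 5.52, 3.93, 5.69, 5.87 and 4.32 CPM after PBS and 36.8, 36.5, 56.8, 65.9 and 48.8 CPM after LPS. KO mice 1 and 2 were the lowest of the LPS libraries, and KO mouse 4 was the highest. The log2FC was 3.08 ± 0.21 (adjusted p = 2.51e-09) in wildtype and 3.27 ± 0.19 (adjusted p = 3.13e-10) in KO mice.

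Oas3 encodes the largest synthetase, a sensor of long double-stranded RNA. It rose from 1.88, 2.91, 2.10 and 2.48 CPM in wildtype mice after PBS to 72.04, 68.6, 106, 109 and 106 CPM after LPS. In KO mice it was at 2.64, 1.99, 1.47, 2.57 and 2.59 CPM after PBS and at 43.9, 51.4, 142, 87.9 and 67.6 CPM after LPS. The LPS-treated KO mice thus spanned the widest range, with mouse 3 above every wildtype mouse and mice 1, 2 and 5 below every wildtype mouse. The log2FC was 5.30 ± 0.35 (adjusted p = 2.08e-09) in wildtype, rank 83 from the top of 18739 genes, and 5.12 ± 0.31 (adjusted p = 5.19e-10) in KO mice, rank 87.

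Oasl1 and Oasl2 are synthetase-like genes whose proteins carry ubiquitin-like domains. Oasl1 has lost the synthetase activity and is known as a brake on the translation of Irf7, whereas Oasl2 has kept it. Oasl1 was at 1.15, 1.58, 1.45 and 1.86 CPM in wildtype mice after PBS and at 96.5, 68.5, 101, 170 and 181 CPM after LPS. KO mice had 2.701, 0.970, 1.02, 1.52 and 0.864 CPM after PBS and 64.6, 68.7, 191, 84.5 and 98.0 CPM after LPS. Among the KO mice, mouse 1 stood above the other PBS libraries and mouse 3 above the other LPS libraries. The log2FC of Oasl1 was 6.35 ± 0.46 (adjusted p = 6.08e-09) in wildtype, rank 42 among all genes tested, and 6.18 ± 0.41 (adjusted p = 1.32e-09) in KO mice, rank 41.

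Oasl2 was the most abundant of the 7 in CPM after PBS, at 12.1, 13.8, 9.79 and 11.98 CPM in wildtype and 11.6, 9.33, 7.26, 12.6 and 8.43 CPM in KO mice. After LPS it was at 160, 122, 147, 209 and 189 CPM in wildtype and at 111, 101, 130, 158 and 98.0 CPM in KO mice. Of the KO mice, 3 lay below every wildtype mouse after LPS, and mice 3 and 4 lay within the wildtype range. The log2FC was 3.79 ± 0.21 (adjusted p = 3.73e-10) in wildtype and 3.60 ± 0.19 (adjusted p = 1.11e-10) in KO mice.

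**Figure D2:**
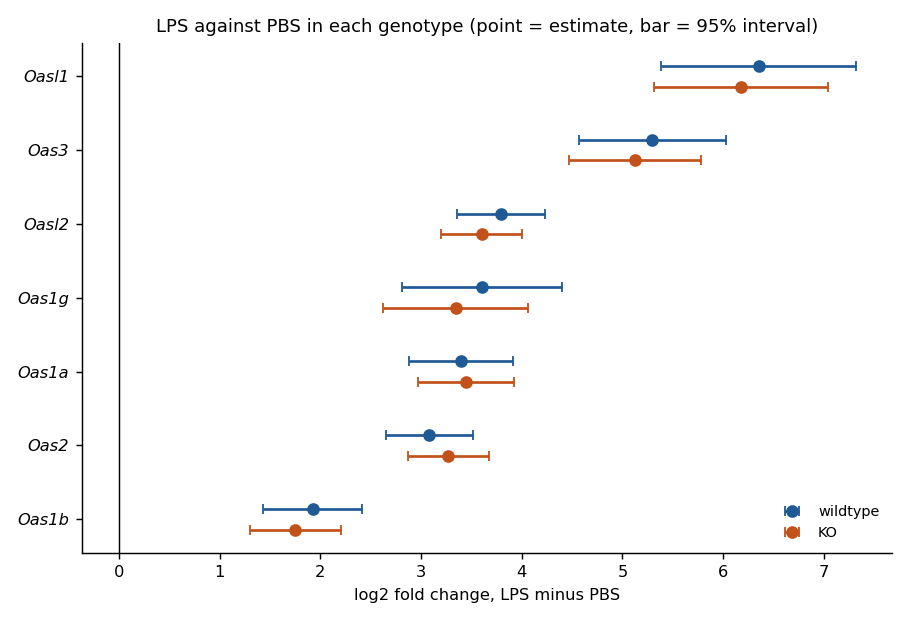
Log2FC of LPS against PBS for the 7 synthetase genes, in wildtype (blue) and KO mice (orange), with 95% intervals from the edgeR fit. The synthetase genes run from Oasl1 at 6.35 and 6.18 to Oas1b at 1.92 and 1.75.

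Because the genes rose by different amounts, the make-up of the family changed. Levels of different genes were compared as CPM per kb of exon. After PBS the wildtype means in CPM per kb were 1.87 for Oasl2, 1.53 for Oas2, 1.21 for Oas1b, 0.585 for Oas1a, 0.577 for Oasl1, 0.350 for Oas1g and 0.331 for Oas3. The ranges over the 4 mice overlapped between Oasl2 and Oas2, between Oas2 and Oas1b, between Oas1a and Oasl1, and between Oas1g and Oas3, so these neighbours were not separated, whereas the ranges of Oas1b and Oas1a and those of Oasl1 and Oas1g did not overlap. After LPS the wildtype means in CPM per kb were 47.2 for Oasl1, 25.9 for Oasl2, 13.1 for Oas3, 12.9 for Oas2, 6.19 for Oas1a, 4.59 for Oas1b and 4.31 for Oas1g. The ranges did not overlap between Oasl2 and Oas3 or between Oas2 and Oas1a, and the other neighbours overlapped. Within each of the 10 LPS libraries, Oasl1 was the highest of the 7 in CPM per kb. The order rested on the gene length used. With the longest transcript in place of all exons (3123 in place of 6374 bases for Oasl2, and 5037 in place of 7989 for Oas1a), Oasl2 after PBS was at 3.13 to 4.41 CPM per kb and no longer overlapped Oas2, at 1.44 to 2.17. Oas1b and Oas1a then overlapped. Oasl1, at 0.519 to 0.843, stayed apart from Oas1g, at 0.332 to 0.475. Oas3, at 0.397 to 0.616, now came between these genes in the order and overlapped both. After LPS the gap between Oasl2 and Oas3 remained, that between Oas2 and Oas1a did not, and Oasl1 was the highest in 4 of the 10 libraries. The principal transcript of Oas1a, with 1911 bases, is shorter still, so its place in the order is uncertain.

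As a share of the summed CPM per kb of the 7 genes, Oasl1 went from 8.94% ± 1.42 (SD, n = 4) after PBS to 40.2% ± 5.29 (n = 5) after LPS in wildtype mice. In KO mice it went from 9.53% ± 3.30 (n = 5) to 41.1% ± 7.84 (n = 5). Oas3 went from 5.13% ± 0.795 to 11.7% ± 1.91 in wildtype mice. Oas1b moved the other way, from 18.9% ± 3.67 to 4.07% ± 0.576 in wildtype and from 21.4% ± 4.39 to 4.53% ± 1.51 in KO mice. Oas2 went from 23.6% ± 2.56 to 11.7% ± 1.73 in wildtype mice. For these 4 genes the PBS and LPS ranges did not overlap in wildtype mice. With the longest transcript as the length, the mean shares of Oasl1 and Oasl2 after LPS in wildtype mice were 33.3% and 33.0%. The shares carry the unequal fold changes given above on another scale and add no separate evidence.

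**Figure D3:**
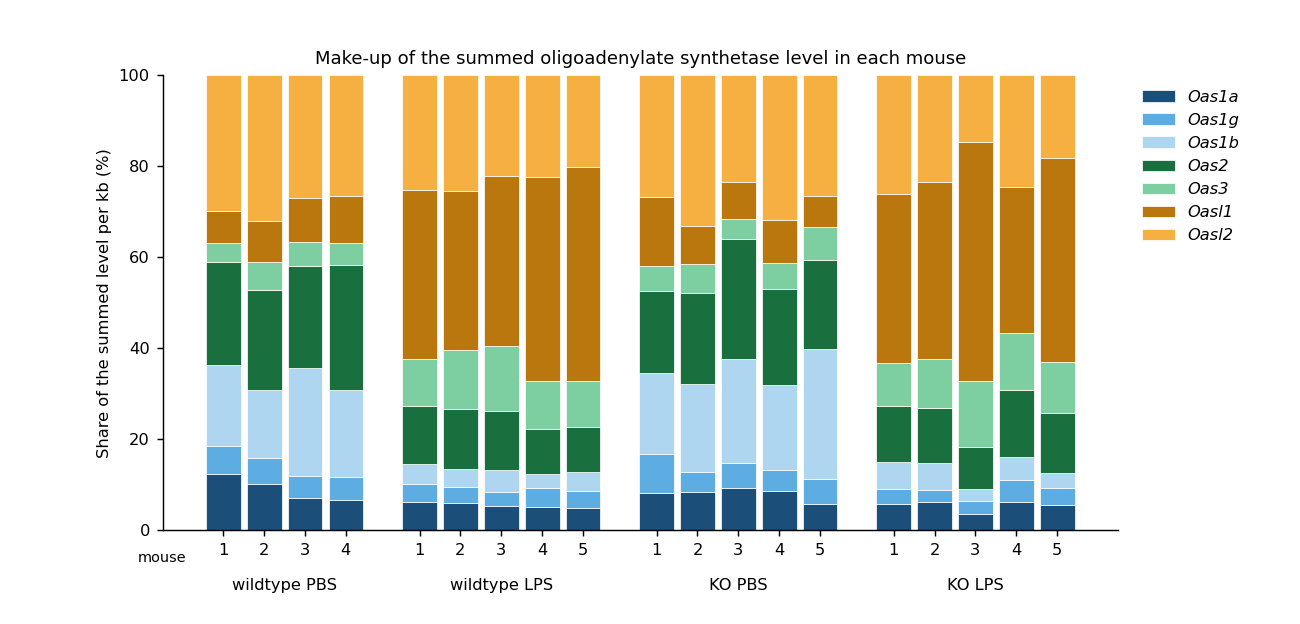
Share (%) of each gene in the summed CPM per kb of the 7 synthetase genes, 1 bar per mouse, grouped by genotype and treatment. Oasl1 takes 32.1% to 52.6% of the bar in the LPS-treated mice of either genotype and 6.67% to 15.2% after PBS.

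Summed in CPM, the family stood at 25.6 to 33.2 CPM in wildtype and 21.3 to 30.8 CPM in KO mice after PBS. After LPS it reached 352 to 635 CPM in wildtype and 300 to 576 CPM in KO mice. The KO range overlapped the wildtype range in both treatments.

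In bulk libraries, fewer cells of a type and less RNA per cell cannot be told apart, and marker levels of several cell types differed between LPS and PBS. Of 9 listed microglial markers, 8 were matched by symbol, and all 8 fell in both genotypes. Their sum was 17335 to 28139 CPM over the PBS libraries and 5611 to 10214 CPM over the LPS libraries. Of 8 monocyte and neutrophil markers, 6 rose in each genotype, and none was at 0 in any library. The sum of these 8 was 64.6 to 110 CPM after PBS and 301 to 595 CPM after LPS in wildtype mice, and 34.5 to 193 CPM after PBS and 150 to 525 CPM after LPS in KO mice. Among border macrophage markers 3 of 6 fell, among endothelial markers 2 of 4 fell, and among astrocyte and among neuron markers 1 of 4 rose, in each genotype. Their sums after PBS and after LPS overlapped for the endothelial, astrocyte and neuron lists, at 299 to 888 and 62.1 to 554 CPM, 85.4 to 536 and 51.0 to 796 CPM, and 11.0 to 58.0 and 17.0 to 93.8 CPM. Border macrophage markers summed to 473 to 636 CPM after PBS and 272 to 518 CPM after LPS. None of 4 oligodendrocyte markers was called, with sums of 942 to 9529 CPM after PBS and 477 to 11132 CPM after LPS, and 1 of 6 lymphocyte markers could be tested and was not called. The part of these changes in the rise of the synthetase genes was not tested.

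The genes that limit or remove 2-5A were not moved in 1 direction. Abce1, a ribosome recycling factor also known to inhibit the 2-5A pathway, rose by a log2FC of 1.27 ± 0.12 in wildtype (adjusted p = 9.57e-08) and 1.44 ± 0.11 in KO mice (adjusted p = 5.79e-09). Pde12, a phosphodiesterase that degrades 2-5A, rose by 1.13 ± 0.10 (adjusted p = 9.29e-08) and 1.24 ± 0.10 (adjusted p = 8.04e-09). Akap7, an anchoring protein with a domain that also degrades 2-5A, had log2FC values of -1.18 ± 0.19 (adjusted p = 6.15e-05) and -1.27 ± 0.18 (adjusted p = 1.39e-05).

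The other copies of Oas1 were either not called after LPS or not tested for want of counts. Oas1c was at 0.572 to 2.26 CPM across all 19 libraries, with log2FC values of -0.01 ± 0.29 in wildtype and -0.31 ± 0.27 in KO mice (adjusted p = 0.977 and 0.375). Oas1d had 1 count in each of 2 libraries, and Oas1e, Oas1f and Oas1h had no count in any of the 19, where 3 counts would be 0.139 to 0.256 CPM. Oas1d overlaps Oas1a on the opposite strand, and the sources used here do not give the strand setting of the counting.

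Among 8 other double-stranded RNA sensors and regulators, 6 rose in both genotypes and the adaptor Mavs and the endosomal receptor Tlr3 were not called. Zbp1, a sensor of Z-form nucleic acid, rose by a log2FC of 4.88 in wildtype and 4.75 in KO mice, and Ifih1, which encodes the sensor MDA5, by 2.44 and 2.34. Eif2ak2 (the kinase PKR, 1.49 and 1.41), Rigi (1.70 and 1.76), Dhx58 (1.95 and 1.88) and Adar (an RNA editing enzyme, 1.61 and 1.48) had smaller log2FC values than at least 6 of the 7 synthetase genes in each genotype. The largest adjusted p of these 6 calls was that of Dhx58 in wildtype mice, 7.74e-06.

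Of 12 listed genes of upstream interferon signalling, 11 were tested and 7 rose in both genotypes. They were the transcription factors Stat2 (log2FC 2.40 in wildtype and 2.25 in KO mice), Irf9 (1.45 and 1.53), Irf7 (4.74 and 4.61) and Irf1 (1.81 and 1.45), the kinase Jak1 (0.97 and 1.26) and the feedback inhibitors Socs1 (1.47 and 1.38) and Usp18 (3.92 and 3.62). The largest adjusted p of these calls was that of Socs1, at 0.00383 in wildtype mice. The receptor genes Ifnar1 and Ifnar2, the kinase Tyk2 and Irf3 were not called in either genotype. Ifnb1, the gene of interferon beta, did not pass the filter and was not tested. It had 0 counts in every PBS library, 0 to 14 counts in wildtype mice after LPS and 1 to 14 in KO mice after LPS.

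The comparison of the genotypes asks whether the level of these genes differs between KO and wildtype mice given the same treatment. Calls for KO against wildtype used an unadjusted p under 0.05 and a log2FC of at least 0.5 in size. These are the study's thresholds, applied here to the edgeR fit, so the calls need not be those of the study's own fit. By this rule none of the 7 synthetase genes was called after LPS, where 0.544% of all genes tested were called higher and 0.763% lower in KO mice. The 7 estimates were all below 0, from -0.47 for Oasl2 to -0.23 for Oas3, with a median of -0.28, while 8748 of the 18739 genes tested had an estimate below 0 and the median of all was 0.02. The KO and wildtype LPS libraries overlapped for each of the 7 genes, and 0.16% of all genes had every KO value below every wildtype value. The 7 estimates come from the same 10 libraries, so their shared sign is not 7 separate observations.

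Oasl2 came nearest to a call. Its log2FC after LPS was -0.47 ± 0.17, with a 95% interval of -0.82 to -0.11, an unadjusted p of 0.0130 and an adjusted p of 1 in edgeR's test. The p was under the rule's limit and the size was short of it. The values after LPS were given above, and 3 of the 5 KO mice lay below the lowest wildtype mouse. Intervals for the other genes after LPS contained 0 and ran from -0.79 to 0.06 for Oas1a, -1.04 to 0.23 for Oas1g, -0.68 to 0.19 for Oas1b, -0.60 to 0.12 for Oas2, -0.77 to 0.30 for Oas3 and -0.94 to 0.38 for Oasl1. Each of these 6 intervals reached below -0.5, so a KO value lower by that much could not be told from no difference.

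Single mice decided some of these values. Without LPS-treated KO mouse 3, Oas3 (log2FC -0.56, unadjusted p = 0.0172) and Oasl1 (-0.64, unadjusted p = 0.0388) would be called lower in KO mice. Oasl2 would be called lower without LPS-treated KO mouse 4 (-0.59), wildtype mouse 2 (-0.55) or wildtype mouse 3 (-0.50). Other mice moved the estimates towards 0 when left out, that of Oas3 to -0.0739 without KO mouse 1, that of Oasl1 to -0.10 without wildtype mouse 5 and that of Oasl2 to -0.37 without wildtype mouse 4. In KO mice 1 to 5 after LPS the monocyte and neutrophil markers summed to 150, 253, 525, 437 and 331 CPM. The oligodendrocyte markers summed to 11132, 1396, 3847, 1034 and 1620 CPM in these mice. In wildtype mice 1 to 5 after LPS the sums were 301, 323, 500, 595 and 375 CPM, and 477, 6567, 3795, 1004 and 1689 CPM. Averaged over the 7 genes, the deviation from the group mean in log2 CPM was -0.34, -0.34, 0.40, 0.37 and -0.09 in the KO mice. In the wildtype mice it was -0.10, -0.51, -0.05, 0.32 and 0.34. Of the 8 monocyte and neutrophil markers, 7 had an estimate below 0 for KO against wildtype after LPS and none was called, with a median log2FC of -0.44. Among them were Camp at -0.69 ± 0.63, Ly6c2 at -0.66 ± 0.51 (unadjusted p = 0.210) and Plac8 at -0.62 ± 0.30 (unadjusted p = 0.0525). These values, and that of Ngp at -0.60 ± 0.55, were further below 0 than that of Oasl2. Ccr2 was at -0.28 ± 0.21, S100a9 at -0.06 ± 0.49 and S100a8 at -0.00443 ± 0.50. Mmp8, the marker above 0, was at 0.05 ± 0.42. The 8 markers summed to 301 to 595 CPM in wildtype and 150 to 525 CPM in KO mice after LPS. The part of these markers in the values was not tested.

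After PBS none of the 7 genes was called either, where 0.224% of all genes tested were called higher and 0.576% lower in KO mice. All 7 estimates were again below 0, from -0.43 for Oas2 to -0.06 for Oas3, with a median of -0.15 beside 0.00 over all genes tested. The log2FC of Oas2 was -0.43 ± 0.19, with a 95% interval of -0.83 to -0.03, an unadjusted p of 0.0365 and an adjusted p of 1. Its KO and wildtype values after PBS overlapped. Oas1a, at -0.41 ± 0.23 (unadjusted p = 0.0857), would be called without PBS-treated KO mouse 1 (-0.51) or wildtype mouse 3 (-0.56), and Oas2 without wildtype mouse 3 (-0.51). Without wildtype mouse 1 the estimate of Oas1a was -0.23, and without wildtype mouse 4 that of Oas2 was -0.29.

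**Figure D4:**
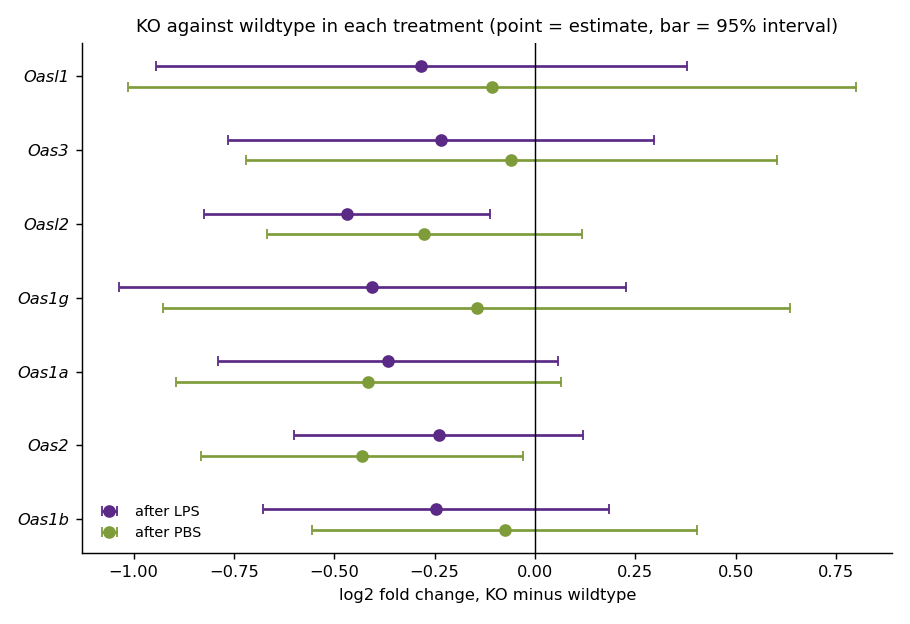
Log2FC of KO against wildtype for the 7 synthetase genes after LPS (purple) and after PBS (green), with 95% intervals from the edgeR fit. The points of the synthetase genes lie between -0.47 and -0.06, and the interval excludes 0 for Oasl2 after LPS and for Oas2 after PBS only.

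The interaction of genotype and LPS asks whether the rise differed between the genotypes. None of the 7 genes was called at an adjusted p under 0.05, and neither was any other gene, so the share over all genes tested was 0%. At an unadjusted p under 0.05 there were 180 genes and none of the 7, and DESeq2 also called no gene. The estimates ran from -0.26 for Oas1g to 0.19 for Oas2, and the lowest unadjusted p was 0.458, for Oasl2. The widest interval, for Oasl1, was -1.31 to 0.95, and the narrowest, for Oasl2, was -0.72 to 0.34.

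None of the genes of the 2-5A, RNA sensor and interferon lists was called between the genotypes in either treatment. The estimates nearest to a call in these lists after LPS were those of Zbp1 (-0.48 ± 0.17, unadjusted p = 0.0121) and Irf7 (-0.47 ± 0.16, unadjusted p = 0.00877). Jak1 also had an unadjusted p under 0.05 after LPS, with an estimate above 0 (0.35 ± 0.14, unadjusted p = 0.0196).

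Across the 19 libraries the 7 genes rose and fell with each other. Pearson's r of log2 CPM between 2 of them ran from 0.949 to 0.993 over the 21 pairs, with a median of 0.984, which largely restates the rise with LPS. Deviations from the group means, which leave that rise out, gave r of 0.158 to 0.779 with a median of 0.614. The highest r of deviations was that of Oas1g with Oas2 and the lowest that of Oas1a with Oas1b. Pairs with Oas1b had r of 0.158 to 0.436, and the other pairs had 0.354 to 0.779. All these values share libraries, depth and cell mixture, and they are given as a description.

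**Figure D5:**
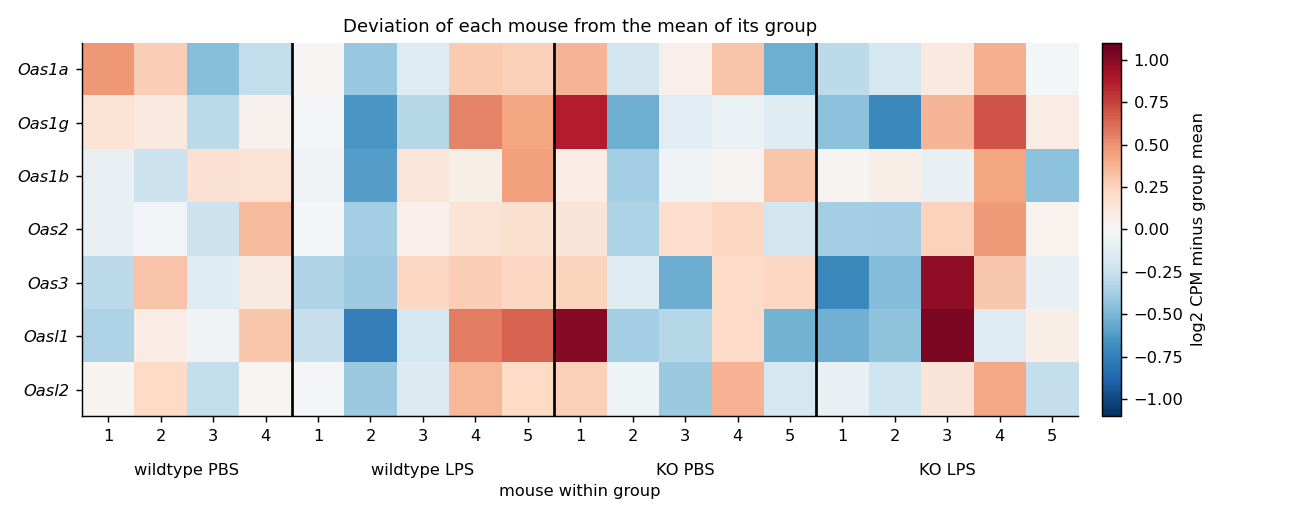
Deviation of each mouse from its group mean in log2 CPM, for each synthetase gene (rows) and mouse (columns), red above and blue below. Wildtype mouse 2 after LPS is below its group mean for all 7 genes, and KO mouse 3 after LPS is above it by 1.03 for Oasl1.

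Within groups, some mice were high or low for the whole family. Wildtype mice 4 and 5 after LPS and KO mouse 1 after PBS were above their group means for all 7 genes, by 0.32, 0.34 and 0.42 on average on the log2 scale. Wildtype mouse 2 after LPS and KO mouse 2 after PBS were below for all 7, with average deviations of -0.51 and -0.29. LPS-treated KO mouse 3 was above for 6 genes, by 1.03 for Oasl1 and 0.98 for Oas3 but by 0.25 for Oas2 and 0.11 for Oas1a. Wildtype mice 4 and 5 after LPS had the lowest microglial marker sums of their group, 5611 and 5814 CPM. Wildtype mouse 2 after LPS, low for the family, and KO mouse 1 after PBS, high for it, each had the highest oligodendrocyte sum of its group (6567 and 7265 CPM). They also had the highest endothelial sums (520 and 858 CPM). The part of cell mixture in these deviations was not tested.

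The genes most like the family over all 19 libraries, by Pearson's r with the mean z-score of the 7, were Irf7 (0.997), Isg15 (0.996), Zbp1 (0.995), Usp18 (0.993), Rnf213 (0.993), Nlrc5 (0.993), Ifi213 (0.992), Ifi205 (0.992), Sp100 (0.991) and Fpr1 (0.991). By the deviations from the group means they were Sp100 (0.902), Ntng2 (0.880), Irf7 (0.875), Mndal (0.862), Xaf1 (0.848), Anxa2 (0.839), Gm56663 (0.837), Lgals3 (0.825), Rapgef2 (0.820) and Cyth3 (0.795). Irf7 and Sp100 were in both lists.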

How the data were processed

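CD11b+ cells were isolated by magnetic sorting from brains without olfactory bulb and cerebellum. Total RNA libraries were made with a stranded kit after ribosomal depletion and sequenced as paired reads of 75 bases. Per the submitters' processing notes, reads were trimmed with cutadapt 0.17.4 and mapped and counted with STAR 2.7.9a on GRCm39. The deposited values are raw counts per Ensembl gene for each of the 19 mice, and the authors did not normalize them. The strand setting of the counting is not given in the sources used here. The 36 pairs of libraries from the same group were compared by a chi-square of their counts, which was at least 6.50 per degree of freedom, so no library was taken as a copy of another.

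The analysis used edgeR 4.0.16 under R 4.3.3 (filterByExpr with a minimum count of 10 and a minimum total of 15, TMM, quasi-likelihood test). All 19 libraries entered one fit with 4 groups, so that each gene's spread came from every group, and p-values were adjusted over all 18739 genes tested by the Benjamini-Hochberg method. CPM values divide each count by the TMM-adjusted depth. Log2 CPM for correlations used a prior count of 2. The SE is the log2FC divided by the square root of F. Gene names and lengths came from GENCODE M39, which named 56236 of the 56980 genes. Scripts were tested on simulated counts. Some genes of the lists are not reported here. The genes, lists and markers were chosen with earlier results of these data known, and Itgam and Ptprc were added as a check of the sort after the other values were seen. The genes named are the 7 synthetase genes, all genes of the lists that were called or have a defining role, Park7, and the 10 genes most alike by each measure. Alternatives were DESeq2 1.42.0 (all groups or the 2 compared), its size factors, 2 other filters, a fit of only the groups compared, a block for the replicate number, ribosomal RNA and mitochondrial genes left out, another threshold, the longest transcript as length, a prior count of 0.5, and each mouse left out in turn.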

Additional observations from a re-analysis of the deposited data

Results flagged for a closer look

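Over the 7 synthetase genes and the 3 genes of the 2-5A turnover list, each in 4 groups, 40 sets of values were examined for a mouse far from the others of its group, and 2 were marked, where chance marks about 1 in 20 sets. Oasl1 in LPS-treated KO mouse 3 was at 190.6 CPM with the nearest mouse at 98.0 CPM, a gap of 0.735 of the group's whole range. Oas1g in PBS-treated KO mouse 1 was at 1.41 CPM, from 23 counts, with the nearest mouse at 0.681 CPM and a gap of 0.769 of the range. Both stayed in the analysis.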

How the results depend on the processing

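All 7 synthetase genes were called higher after LPS in both genotypes under each alternative run and with each mouse left out, and none was called for the interaction under any of them. Between genotypes, 0 of the 7 were called under each alternative that kept all mice. With 1 mouse left out the count ran from 0 to 2 after LPS and from 0 to 2 after PBS, with the mice named beside those results. Estimates that changed sign with 1 mouse left out had, for KO against wildtype after PBS, ranges of -0.155 to 0.0137 for Oas1b, -0.155 to 0.0701 for Oas3 and -0.459 to 0.0292 for Oasl1, and, for the interaction, -0.132 to 0.190 for Oas1a, -0.470 to 0.0590 for Oas1g and -0.535 to 0.176 for Oasl1. None of these was called in either sign.

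The replicate numbers of the labels were not taken to pair the mice, since the labels do not say that a number is shared by litter or day. Correlations of deviations between same-numbered LPS and PBS mice had means of 0.325 in wildtype (-0.0418 to 0.576) and 0.254 in KO mice (0.0265 to 0.544). Between genotypes after LPS and PBS the means were -0.102 and -0.00595. No differently numbered pairs were set beside them, so they cannot decide whether a number marks a shared preparation. Wildtype mouse 2 and KO mouse 1 had the highest oligodendrocyte sums of their groups after PBS (9529 and 7265 CPM) and after LPS (6567 and 11132 CPM). With the number as a replicate block, the counts of called synthetase genes were 7 and 7 for LPS and 0 for the other comparisons, and the log2FC of Oasl2 after LPS was -0.47. Over all genes tested, the count of KO against wildtype calls after PBS went from 150 to 234 with the block, and to 680 without the low-count filter or 58 with at least 10 counts in every library. After LPS it went from 245 to 854 without that filter, 111 with the stricter one, 138 and 105 with only the 2 groups compared in DESeq2 and edgeR, and 2 with adjusted p (1 after PBS). The interaction had 180 calls with unadjusted p. The cause of these shifts was not tested.

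With the length of the longest transcript, the wildtype level in CPM per kb was 0.928 for Oas1a, 0.427 for Oas1g, 0.496 for Oas3 and 3.81 for Oasl2 after PBS, and 9.81 for Oas1a, 19.5 for Oas3 and 53.0 for Oasl2 after LPS. The shares after PBS were then 14.1% for Oas1b, 4.54% for Oas1g, 18.3% for Oas2, 7.29% for Oasl1 and 40.6% for Oasl2, and after LPS 6.12% for Oas1a, 3.08% for Oas1b, 3.18% for Oas1g, 9.17% for Oas2, 33.3% for Oasl1 and 33.0% for Oasl2. The shorter lengths alone set these shifts. Depth limits Oas1g most, at 10 to 23 counts per library after PBS.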
